A study of Mus musculus with 2 samples.

Results

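Small intestinal enterocytes were profiled by droplet single-cell RNA sequencing in 2 libraries, 1 for each genotype, and the barcodes described here are those in which a set of 4 genes, Lypd8l, Areg, Bche and Slc51a, took its largest share of transcripts relative to 3 other gene sets. They are called the Lypd8l Areg Bche enterocytes, or the members. The adip fl/fl library came from mice with a floxed adiponectin gene, and the adip fl/fl-Villi-Cre library from littermates that also carried Cre under the villin promoter, which removes the floxed gene in epithelial cells along the whole intestine and not in fat. Both groups were 8-week-old male mice on a C57BL/6 background, and crypt-enriched epithelium of the small intestine was pooled over mice into 1 sample per genotype, with 6 mice stated for the pooled samples. With 1 library per genotype no difference between genotypes can be tested, and all intervals below cover counting error of unique molecular identifiers (UMIs, each counting 1 captured transcript) only.

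The members were chosen by their measured values. Of 9791 barcodes in adip fl/fl and 11838 in adip fl/fl-Villi-Cre, 3069 and 5555 had more than 500 genes and less than 25% mitochondrial UMIs. Barcodes with 1% or more of their UMIs from the goblet cell genes Muc2, Tff3 and Zg16, or with any UMI of Cd3e, Cd3g, Tyrobp, Trpm5, Chgb, Olfm4 or Top2a, were then left out, which kept 1912 and 3560 eligible barcodes. Each gene list was scored as its share of a barcode's UMIs divided by the mean share over all eligible barcodes. List A held Car4, Plac8, Oat and Krt19, list B held Slc5a12, Cubn, Cyp3a11 and Slc2a2, list C held Ada, Nt5e, Slc28a2 and Ly6m, and list D held the 4 genes above. List D scored highest in 404 barcodes of adip fl/fl and 657 of adip fl/fl-Villi-Cre, 1061 of 5472 eligible barcodes and of 21629 in all. List A scored highest in 383 and 672 barcodes, list B in 714 and 1124, list C in 404 and 1102, and 12 barcodes scored 0 on every list. The libraries shared 31 barcode sequences, of which 2 belonged to members of adip fl/fl and 3 to members of adip fl/fl-Villi-Cre.

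Enterocytes are the absorptive cells of the villus. They are born in the crypt, move up the villus while their programme shifts from antimicrobial proteins and amino acid uptake towards lipid handling, and are shed at the tip. The 4 genes of list D come from separate parts of enterocyte biology. Areg encodes amphiregulin, a ligand of the epidermal growth factor (EGF) receptor that is shed from the cell surface. Bche encodes butyrylcholinesterase, which splits choline esters. Slc51a encodes the alpha subunit of the basolateral bile acid exporter, which works as a pair with the product of Slc51b. Lypd8l is named for its likeness to Lypd8, whose product keeps flagellated bacteria away from the intestinal epithelium.

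Genome positions refer to GRCm38. Lypd8l lies on chr11:58608204-58616075 on the minus strand and Lypd8 on chr11:58379043-58390728 on the plus strand. Areg lies on chr5:91139599-91148432 on the plus strand and Bche on chr3:73635808-73708415 on the minus strand. Slc51a lies on chr16:32474504-32487879 on the minus strand and overlaps Pcyt1a, which is on the plus strand. All 5 are protein-coding genes, and the count tables list a single level for the whole gene, so exons cannot be told apart.

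Below, each pair of values gives adip fl/fl first and adip fl/fl-Villi-Cre second, and levels are counts per 1000000 (CPM), the summed UMIs of a class of barcodes scaled to that total. The members held 2867236 and 4767061 UMIs in all. A member had a median of 5122.5 and 5175 UMIs and 1782 and 1823 genes, with 19.5 and 18.8% mitochondrial UMIs. Barcodes of list A were far deeper, with a median of 16344 and 16092 UMIs and 6.91 and 6.39% mitochondrial UMIs, whereas those of list B had 3826 and 3763 UMIs and 21.3 and 20.7% and those of list C 3759.5 and 3541 UMIs and 19.9 and 20.1%. The members thus lay between the list A barcodes and the others in depth. Depth and mitochondrial share moved with the class, and their part in the differences between classes was not tested.

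The members carried general enterocyte transcripts. Vil1, which encodes the brush border protein villin, stood at 1824 and 1967 CPM in them and Fabp1, a fatty acid binding protein, at 3816 and 3637.5 CPM, against 122 and 349.5 and 181 and 1075 CPM in barcodes with at least 3 UMIs of the T cell genes. After each barcode was thinned to 2000 UMIs, which left out 28 and 30 members with fewer, Vil1 was detected in 97.3 and 97.6% of members. Markers of the colon did not define them: Car1 was at 0 UMIs in both libraries, and the colonocyte list of 9 measured genes summed to 228 and 229 CPM, most of it from the chloride exchanger Slc26a3. Of the ileal list of 14 genes, Fabp6, the ileal bile acid binding protein, was at 0.698 and 1.05 CPM and Slc10a2, the apical bile acid importer of the ileum, at 1.74 and 3.15 CPM, whereas the whole list summed to 8585 and 8381 CPM in members and 7692 and 7434 CPM in the other eligible barcodes, most abundantly Guca2b, which encodes uroguanylin.

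The label of the members rests on 4 genes of unequal weight. Slc51a gave 44.2% and 50.4% of their list D UMIs, Lypd8l 27.1% and 29.4%, Bche 18.8% and 10.8%, and Areg 9.86% and 9.44%. A member held a median of 5 list D UMIs in either library, and the highest count was 92 and 122. The deeper list A barcodes held a median of 9 and 10. In all they held 5041 and 8990 list D UMIs, more than the 3479 and 6072 of the members. In 63 of 404 and 105 of 657 members the assignment rested on 1 list D UMI, and in 279 and 457 on 3 or more. A single gene of the list was detected in 139 and 226 members, and that gene was Slc51a in 91 and 182 of them. All 4 genes were detected in 49 and 78 members. Slc51a was detected in 341 of 404 and 597 of 657 members, Lypd8l in 180 and 296, Bche in 230 and 300 and Areg in 115 and 210. Slc51a was thus the gene that most members had in common.

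The margin of the score was small for many members. The median list D score was 2.04 and 2.21 times the mean of eligible barcodes, and the next highest list scored a median of 1.05 and 1.09. In 144 and 259 members list D scored less than 1.5 times the next list. Just inside the rule, a member of adip fl/fl scored 2.91 on list D and 2.90 on the next list, and one of adip fl/fl-Villi-Cre scored 3.91 and 3.90. Just outside it, the closest barcodes scored 3.61 on both lists in adip fl/fl, and 3.34 on list D against 3.35 in adip fl/fl-Villi-Cre. The second list was A in 202 and 287 members, B in 185 and 322, C in 15 and 47, and 2 and 1 members scored 0 on all the other lists.

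Lypd8l stood at 329 and 374 CPM in the members, at 173 and 191 in list A barcodes, at 6.28 and 11.6 in list B barcodes and at 3.61 and 7.09 in list C barcodes. The 95% counting intervals of the members, 308 to 351 and 357 to 392 CPM, were above those of every other class, and those of lists B and C overlapped each other in both libraries. Areg followed the same order, with 119.6 and 120.2 CPM in the members, 51.0 and 56.4 in list A, 14.0 and 23.7 in list B and 6.02 and 8.46 in list C barcodes. Its intervals in lists B and C overlapped in adip fl/fl and not in adip fl/fl-Villi-Cre. As these genes chose the members, their levels are a description.

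Bche stood at 228 and 138 CPM in the members, at 179 and 124 in list A barcodes, at 55.6 and 39.3 in list B and at 14.4 and 9.15 in list C. The intervals of members and list A barcodes were apart in adip fl/fl and overlapped in adip fl/fl-Villi-Cre, where they ran from 127 to 149 CPM and from 118 to 131 CPM. Slc51a stood at 536 and 642 CPM in the members, 345 and 406 in list A, 188 and 236 in list B and 56.0 and 68.4 in list C barcodes, with no overlap of intervals between neighbouring classes. At 2000 UMIs per barcode, Slc51a was detected in 64.6 and 70.2% of members, Bche in 30.3 and 22.6%, Lypd8l in 26.6 and 30.1% and Areg in 13.3 and 16.7%. Without thinning these shares were 84.4 and 90.9%, 56.9 and 45.7%, 44.6 and 45.1% and 28.5 and 32.0%. In list A barcodes the shares at 2000 UMIs were 42.4 and 51.2%, 26.2 and 21.1%, 18.7 and 23.8% and 7.99 and 9.91%, in the same order of genes. Without thinning the deeper list A barcodes showed 81.2 and 87.9%, 72.3 and 69.2%, 51.7 and 54.3% and 31.6 and 37.2%. Bche, Lypd8l and Areg were then detected in a larger share of list A barcodes than of members. T cell barcodes, chosen by T cell genes, had a median of 5376 and 4722.5 UMIs. At 2000 UMIs they showed shares of 2.00 and 5.23% for Slc51a, 0.891 and 1.87% for Bche, 0.223 and 2.06% for Lypd8l and 0.668 and 1.68% for Areg. Whether these UMIs came from free RNA or from the T cells was not tested. As the rule selects barcodes for these UMIs, the shares in members are a description too.

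**Figure D1:**
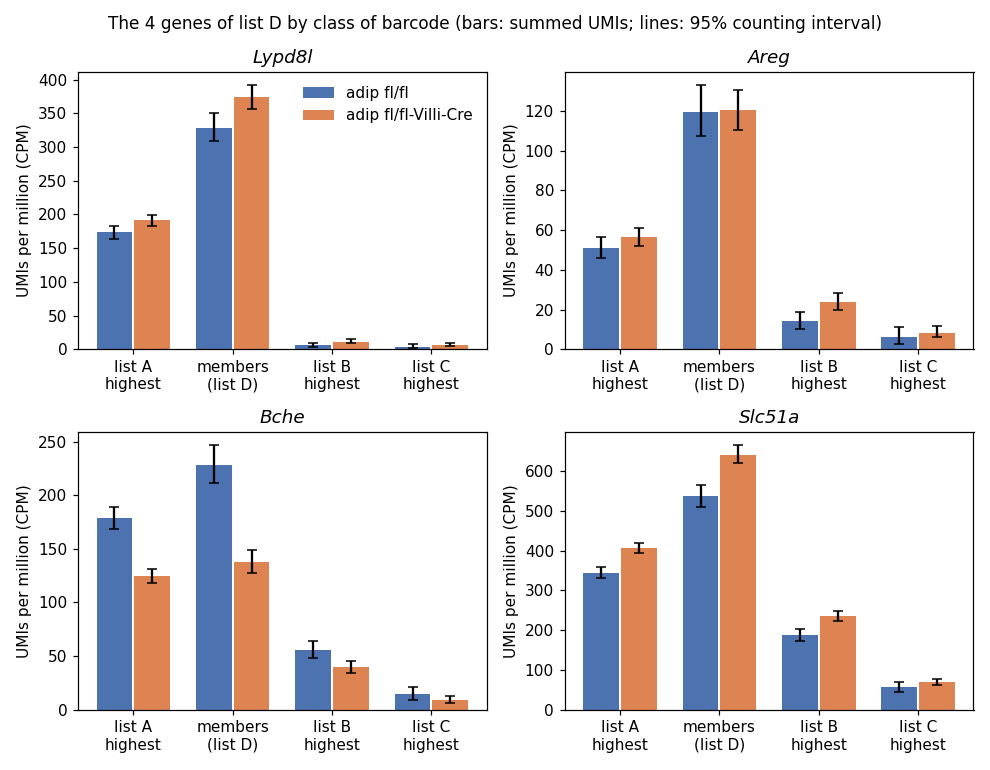
Level in CPM (vertical axis, starting at 0) of each list D gene in the 4 classes of barcodes for adip fl/fl (blue) and adip fl/fl-Villi-Cre (orange). Bars are summed UMIs of the class and lines are 95% Poisson intervals; the members hold the highest bar of each gene in both libraries, and Bche in members is at 228 CPM in adip fl/fl and 138 CPM in adip fl/fl-Villi-Cre.

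To see what of each gene's level was independent of its own place in the rule, list D was scored again with that gene left out. Left out of its own list, Slc51a was still 1.19 and 1.26 times as high in the barcodes so chosen as in those of list A, and 1.82 and 1.75 times as high as in those of list B. Areg was 1.01 and 1.37 times the list A level, with an interval of 0.849 to 1.20 in adip fl/fl and of 1.21 to 1.55 in adip fl/fl-Villi-Cre. Bche was 0.949 and 0.899 times the list A level and Lypd8l 0.795 and 0.695 times. Compared with list B barcodes, Lypd8l was 12.9 and 7.82 times as high, Areg 2.45 and 2.38 times and Bche 2.57 and 2.37 times. Slc51a was the one gene of the 4 whose interval lay above its list A level in both libraries when it had no part in the choice, that of Lypd8l lay below it in both, and all 4 genes were above their list B and list C levels. Of the members, 85.4% and 87.4% were chosen again without Lypd8l, 92.6% and 91.8% without Areg, 86.1% and 91.6% without Bche, and 69.3% and 61.3% without Slc51a.

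Outside the rule genes, the summed transcriptome of the members lay between those of list A and list B barcodes. The sum pools members that differed by the list that scored second, as given below, so it does not place each member in the middle. Of 519 genes that were at least 2-fold higher in list B than in list A barcodes in both libraries, 489 and 510 had a level in members between the pair, that is 94.2 and 98.3%. Of 1742 genes at least 2-fold higher in list A than in list B barcodes, 1690 and 1709 were in between, or 97.0 and 98.1%. On a log2 scale that runs from 0 at the list A level to 1 at the list B level, the median place of members was 0.577 and 0.622 for the first set and 0.476 and 0.504 for the second. The quartiles of the first set were 0.464 and 0.678 in adip fl/fl, whereas the Cre library had quartiles of 0.542 and 0.705.

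**Figure D2:**
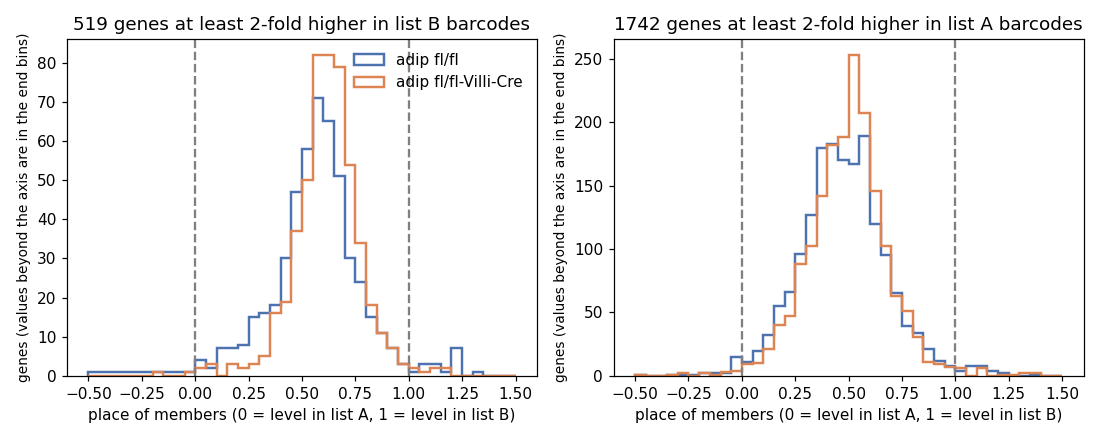
Histograms of the place of the members on a log2 scale from the list A level (0) to the list B level (1), horizontal axis, against the number of genes, vertical axis, for genes higher in list B (left, 519 genes) or list A barcodes (right, 1742 genes). Lines are adip fl/fl (blue) and adip fl/fl-Villi-Cre (orange), dashed lines mark the levels of both classes, and medians of 0.577 and 0.622 (left) and 0.476 and 0.504 (right) put the pooled sum of the members near the middle.

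The nearest neighbours of each barcode were found after all rule genes had been removed and every barcode had been thinned to 2000 UMIs. Among the 20 nearest barcodes of a member, 41.2 and 38.4% were other members, while members made up 21% and 18.6% of the barcodes compared. List B barcodes formed 39.1 and 40% of these neighbours, list A barcodes 16.5 and 16.1% and list C barcodes 3.26 and 5.45%. Among barcodes of the other lists, 69.8 and 76.6% of the neighbours of list A barcodes, 70.2 and 67.4% of those of list B and 85.4 and 86.1% of those of list C were of their own class, and these classes made up 20.3% and 19.1%, 37.3% and 31.7%, and 21.4% and 30.7% of the barcodes compared. Most neighbours of members belonged to other classes, which held for no other class.

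**Figure D3:**
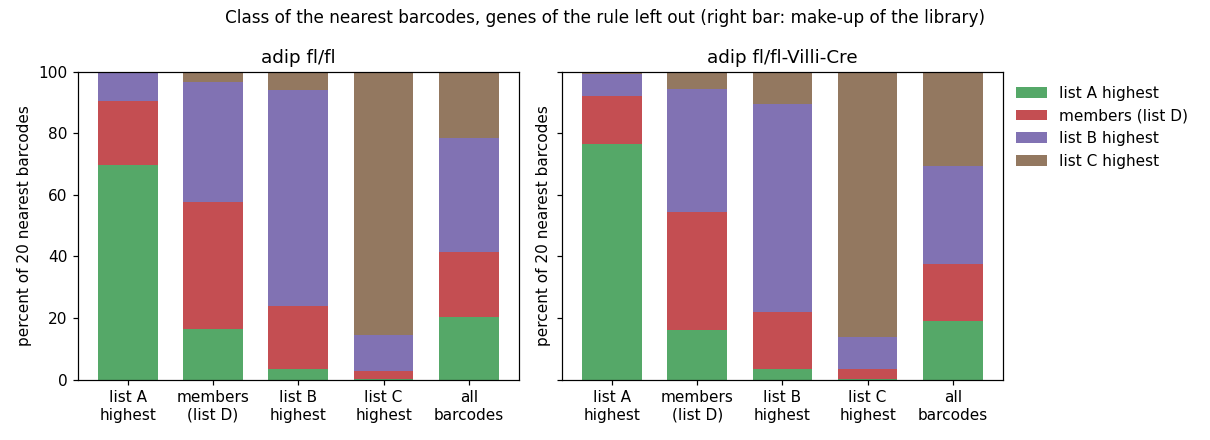
Class of the 20 nearest barcodes in percent (vertical axis) for barcodes of each class, rule genes left out, with the make-up of the library in the right bar of each panel. Members (red) are 41.2 and 38.4% of the neighbours of members, against 21% and 18.6% of all barcodes compared, and list C barcodes (brown) are 3.26 and 5.45%.

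Lists of genes for places along the villus, none of them in the rule, put the pooled sum of the members in the same order. The 12 villus bottom genes summed to 35315 and 38545 CPM in list A barcodes, 29153 and 33180 in members, 19430 and 20778 in list B and 9252 and 7533 in list C barcodes. The 15 villus tip genes summed to 15131 and 14583, 30966 and 31457, 56979 and 51314 and 87969 and 80992 CPM in that order. The 13 mid-villus genes peaked in list B barcodes, at 33571 and 37318 CPM, with 26384 and 29040 CPM in members. Among bottom genes, the antimicrobial lectin Reg3b was at 13538 and 16203 CPM in members and 17303 and 19892 in list A barcodes, and Pycard, an adaptor of the inflammasome, at 257 and 266 against 947 and 948 CPM. Among tip genes, the apolipoprotein gene Apoa4 was at 4018 and 3768 CPM in members, 1578 and 1258 in list A and 10987 and 8396 in list B barcodes.

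**Figure D4:**
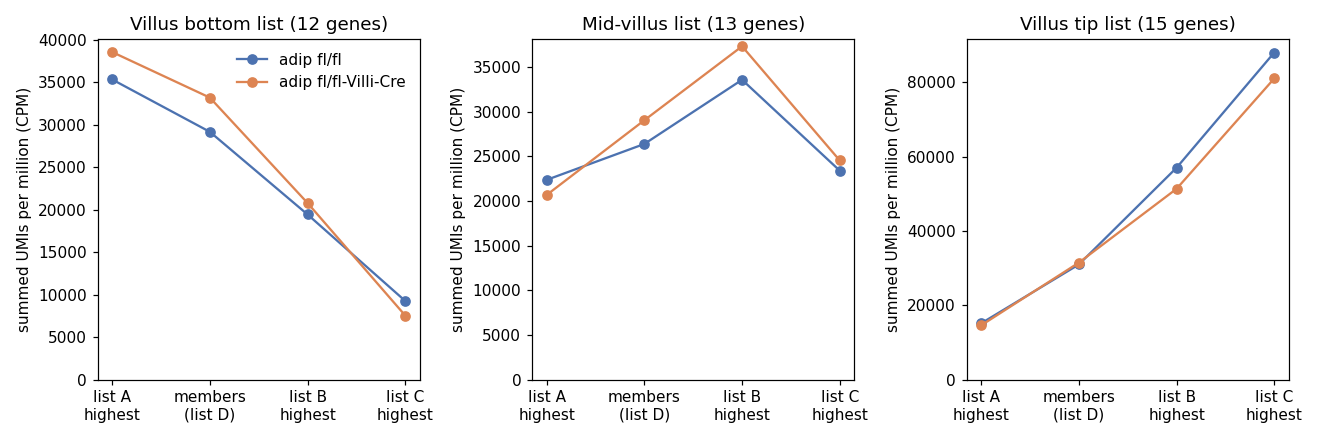
Summed CPM (vertical axis, starting at 0) of gene lists for the bottom, middle and tip of the villus in the 4 classes of barcodes, adip fl/fl in blue and adip fl/fl-Villi-Cre in orange. From list A through members and list B to list C the bottom list stands lower at each step and the tip list higher, and members hold 29153 and 33180 CPM of the bottom list and 30966 and 31457 CPM of the tip list.

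Of 7047 genes outside the rule with at least 10 CPM in the higher set and 20 UMIs over both sets in each library, 70 were at least 1.5-fold higher in both libraries (0.993%) and 415 at least 1.5-fold lower (5.89%). The count of higher genes was 24 with a mitochondrial limit of 10%, 351 with equal weight of barcodes and 428 with barcodes thinned to 2000 UMIs, and that of lower genes was 174 with the 10% limit and 276 without Slc51a in the rule. Against list A barcodes 489 of 7310 genes were higher (6.69%) and 1343 lower (18.4%). Against list B barcodes 1180 of 6864 were higher (17.2%) and 238 lower (3.47%), and against list C barcodes 3951 of 6922 were higher (57.1%) and 785 lower (11.3%). The median gene was shifted by -0.10 and -0.10 on the log2 scale against list A, by 0.22 and 0.18 against list B and by 0.95 and 0.90 against list C barcodes, so these counts hold the shift of the typical gene as well. By count of such genes the members stood farthest from list C.

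Of the genes outside the rule with at least 50 CPM, the 15 named here as highest in members relative to the other eligible barcodes were, apart from an immunoglobulin gene, less than 2-fold higher. In that ranking 2 predicted genes or pseudogenes were passed over. Nr1d1, a repressor of the circadian clock, was at 58.9 and 72.6 CPM in members against 31.8 and 36.7, which is 1.85-fold (1.54 to 2.23) and 1.98-fold (1.74 to 2.25). Gdpd2, a glycerophosphodiester phosphodiesterase, was at 147 and 165 against 80.1 and 83.2 CPM (1.84 and 1.99-fold). Both Slc5a11, a sodium-coupled inositol transporter (166 and 173 CPM, 1.79 and 1.88-fold), and Slc5a1, the sodium-glucose transporter SGLT1 (3292 and 4204 CPM, 1.65 and 1.70-fold), were higher. So was Slc36a1, a proton-coupled amino acid transporter, at 142 and 157 CPM (1.70 and 1.70-fold), and Slc30a2, a zinc transporter, at 85.4 and 81.2 CPM (1.62 and 1.59-fold).

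The remaining leading genes were Osgin1, an oxidative stress-induced growth inhibitor (1.84 and 1.83-fold), Neurl3, a ubiquitin ligase (1.83 and 1.72-fold), Dnm1, a dynamin (1.68 and 1.66-fold), Ext1, which builds heparan sulphate (1.71 and 1.65-fold), Mical1, an actin-oxidising enzyme (1.6 and 1.71-fold), Paxbp1 (1.64 and 1.59-fold), Ano9, of the anoctamin family (1.59 and 1.6-fold), and Eci3, an enoyl-CoA isomerase of fatty acid oxidation (1.59 and 1.67-fold). Their levels in members ran from 63.4 CPM of Dnm1 in adip fl/fl-Villi-Cre to 321 CPM of Mical1 in adip fl/fl. Not all of them were highest in members, as Paxbp1 was at 111 and 83.1 CPM in members and 114 and 85.5 CPM in list B barcodes, and Mical1 at 321 and 290 CPM in members and 326 and 275 CPM in list B barcodes. Igha, the immunoglobulin A heavy chain, was 5.96 and 1.73-fold higher, but 1 member held 52.1% of its UMIs in adip fl/fl and 1 member 61.6% in adip fl/fl-Villi-Cre. Without barcodes with at least 1% immunoglobulin UMIs the Igha fold was 0.808 in the library with the smaller change, an alternative chosen after seeing the data.

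Of the 10 genes named as lowest in members relative to the other eligible barcodes, 9 were highest in list C barcodes. Cldn4, a claudin of tight junctions, was at 38.7 and 70.5 CPM in members and 1704 and 2029.8 in list C barcodes (0.147 and 0.153 times the level of all other eligible barcodes). S100a6, a calcium-binding protein, was at 75.3 and 130.5 against 2856 and 3035.5 CPM, and Clca4a, of the chloride channel accessory family, at 234 and 426 against 6924.5 and 6637.5 CPM. Acsl3, Gprc5a, Slc23a4, Lama3, Tm4sf4 and Tubb2a were lower in members too (Lama3 turned to 1.27-fold higher with a mitochondrial limit of 10%), with member levels from 7.67 CPM of Gprc5a to 45.3 CPM of Slc23a4 and list C levels from 259 CPM of Acsl3 to 779.7 CPM of Slc23a4. Hspe1, a mitochondrial chaperonin, was the exception: it was at 39.4 and 34.4 CPM in members, 233 and 204 in list A, 12.6 and 11.2 in list B and 3.61 and 2.97 in list C barcodes. Cldn4 was lower still in list A barcodes, at 8.45 and 26.7 CPM, and Acsl3 stood at 9.77 and 10.1 CPM in members and 10.5 and 10.1 CPM in list A barcodes. S100a6, Clca4a, Gprc5a, Slc23a4, Lama3, Tm4sf4 and Tubb2a were also lower in list A barcodes than in members. Members stood from 1.92 and 1.78 times (S100a6) to 7.21 and 5.42 times (Clca4a) the list A level. Gprc5a was below 10 CPM in both classes in adip fl/fl. Low levels of these genes were thus not particular to the members.

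Of 7593 genes, 766 were higher in members than in list A, B and C barcodes in both libraries (10.1%), and 9 were higher by at least 1.5-fold over each (0.119%). The 9 were Fgf15, Ereg, Nr1d1, Ifi27l2a, Iglc2, Igha, Ccdc116, mt-Tt and Gm42614. Fgf15, the intestinal hormone that lowers bile acid synthesis in the liver, was at 37.0 and 13.2 CPM in members against 8.90 and 6.23 in list A, 3.29 and 1.65 in list B and 3.61 and 0.457 in list C barcodes. Its UMIs came from 27 of 404 and 30 of 657 members, the richest of which held 16% and 19.0%. Ereg, which encodes epiregulin, an EGF receptor ligand like amphiregulin and a neighbour of Areg in the genome, was at 28.9 and 19.3 CPM in members and 12.9 and 11.9 in list A barcodes. The immunoglobulin light chain gene Iglc2 was found in 2 and 3 members only, and Ifi27l2a in 8 and 8, with 67.7% and 52.9% of its UMIs in 1 member.

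Of the EGF family ligands outside the rule, Ereg was higher in members than in each other class. Areg is a rule gene, and its level when left out of the rule is given above. Hbegf, the most abundant ligand, was at 323 and 315 CPM in members and 529 and 538 in list C barcodes, and Tgfa at 22.3 and 17.0 CPM. Of the 6 ligands outside the rule 3 had enough UMIs, and 1, Ereg, was at least 1.5-fold higher than in the other eligible barcodes in both libraries, beside 0.993% of all genes higher and 5.89% lower, the shares that also stand beside the list counts that follow. Of 14 receptors, sheddases and feedback genes 8 were compared, and 1, the receptor Egfr, was lower, at 10.1 and 11.3 CPM in members against 152 and 131 in list C barcodes. Against list A barcodes 3 of the 8, Erbb2, Errfi1 and Dusp6, were higher and 0 lower, beside 6.69% and 18.4% of all genes. Erbb2 and Erbb3, the receptors that pair with others of the family, were at 159 and 126 and 289 and 219 CPM in members. The sheddase Adam17, which releases amphiregulin from the membrane, was at 21.6 and 22.9 CPM.

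Of 9 compared bile acid genes outside the rule, 1, Fgf15, was higher than in all other eligible barcodes and 0 were lower, with a median log2 fold of 0.242 and 0.368 against 0.033 and 0.053 for all genes. Slc51b, the partner subunit, was at 211 and 263 CPM in members, 243 and 277 in list A and 180.2 and 249 in list B barcodes. The bile acid receptor gene Nr1h4 (FXR) was at 27.9 and 30.0 CPM in members against 44.6 and 39.6 in list A barcodes, and the vitamin D receptor gene Vdr at 224 and 221 against 231 and 222 CPM. Abcc2, an apical exporter of conjugates, was at 224 and 233 CPM. Of the Ly6 and uPAR family, which holds Lypd8l, Lypd8 was at 1376 and 1822.5 CPM in members and 3315 and 4031 in list A barcodes, and Ly6e at 95.2 and 81.8 CPM, with 0 of 2 compared genes past 1.5-fold against all other eligible barcodes and 1, Lypd8, lower than in list A barcodes, beside 18.4% of all genes. Of the 12 esterase genes, Ces2e was at 851 and 800.5 CPM in members, and Ces1f, at 7.67 and 6.71 CPM against 27.3 and 35.1 in list A barcodes, was the 1 of 4 compared that was lower than in all other eligible barcodes.

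Of 11 genes of the sugar list, 4 were higher in members than in each other class in both libraries, beside 10.1% of all genes, namely Sis, Slc5a1, Khk and G6pc. Khk and G6pc encode ketohexokinase and glucose-6-phosphatase, enzymes of sugar metabolism inside the cell. Sis, which encodes sucrase-isomaltase, was at 4797 and 5332 CPM in members, 4620.2 and 4736 in list A, 2368 and 3033.5 in list B and 241 and 387 in list C barcodes. Against all other eligible barcodes, 1 of the 11, Slc5a1, passed the 1.5-fold limit in both libraries, and the median log2 fold of the list was 0.356 and 0.573. Of 12 amino acid and peptide transporters 2 were highest in members, Slc36a1 and Slc16a10 (322 and 327 CPM), and the peptide transporter gene Slc15a1 was at 643 and 911 CPM in members against 936 and 1377 in list B barcodes. Of 13 brush border hydrolases 1, Xpnpep2, was at least 1.5-fold higher than in the other eligible barcodes, at 186 and 202 CPM. Of 16 compared genes of lipid packaging 1, Apoa4, was lower and 0 were higher. Of 14 sterol genes 1, the cholesterol exporter gene Abca1, was higher at 70.1 and 84.3 CPM, and the synthesis genes Cyp51 and Idi1 were lower.

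The 19 genes of MHC class I and interferon response summed to 7719 and 8666 CPM in members, 5472 and 5481.5 in list A and 10719 and 11899 in list B barcodes, and 0 of 17 compared were past 1.5-fold in either direction against all other eligible barcodes, while against list A barcodes 4 were higher and 1 lower, beside 6.69% and 18.4% of all genes. Against all other eligible barcodes, beside 0.993% of all genes higher and 5.89% lower, of 12 compared antimicrobial and inflammatory genes 1, Nos2, which makes nitric oxide, was higher at 14.3 and 46.1 CPM, and Dmbt1, Duox2 and Duoxa2 were lower. The 13 mitochondrial protein-coding genes summed to 71980 and 73361 CPM in members against 42813 and 44656 in list A barcodes, and 12 of them were at least 1.5-fold above list A, beside 6.69% of all genes. Against all other eligible barcodes, of 4 compared genes of injury and regeneration 1, the alarmin Il33, was higher and 2, S100a6 and Cldn4, were lower. Il33 was at 30.7 and 18.7 CPM in members and 16.5 and 16.7 in list A barcodes, and S100a6 and Cldn4 were higher in members than in list A barcodes.

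For the remaining lists, the share over all genes against the other eligible barcodes is 0.993% higher and 5.89% lower, as above. Of 14 cytoskeleton genes 5 were lower, namely Krt8, Krt18, Krt20, Tmsb4x and Tmsb10. Against list A barcodes 0 of the 14 were lower and 2, Myo15b and Espn, higher, beside 18.4% and 6.69% of all genes. Against list C barcodes 8 were lower and 2 higher, beside 11.3% and 57.1%. Against all other eligible barcodes again, of 13 compared gasdermin and inflammasome genes 3 were lower, Pycard, Gsdmc2 and Gsdmc4. One or more genes were lower in the lists of tight junctions (1 of 11, Cldn4), transcription factors (1 of 18, Prdm1, a factor of the fetal to adult transition), purine metabolism (1 of 8, Enpp3) and iron and metals (2 of 10, Mt2 and Tfrc). The lists of immediate early genes (17 compared), glutathione and xenobiotic enzymes (17), fat oxidation (9), retinoid handling (6), signals to intraepithelial lymphocytes (9), MHC class II (7) and apoptosis (10) had 0 genes past the limit, which for lists of this size is near those shares. Among ileal genes Fgf15 was the 1 of 10 that was higher, and among 11 proximal genes Slc5a1 was higher and Apoa4 and Scd2 were lower.

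B and plasma cell and goblet genes, given with the genotypes below, were the most abundant markers of other cell types in the members, and B and plasma cell genes summed to 7818 and 2641 CPM in members against 1646.5 and 2088 CPM in the other eligible barcodes. Nearly all of it came from 2 members in each library, which held 99.7% and 98.6% of the Igha, Igkc and Jchain UMIs, and without them these 3 genes stood at 26.1 and 36.3 CPM in members. The stem cell list summed to 41.9 and 29.8 CPM with Lgr5, Olfm4 and Ascl2 at 0, the cycling list to 70.1 and 54.8 CPM, the tuft list to 8.72 and 6.71 CPM, the enteroendocrine list to 74.3 and 92.7 CPM and the M cell list to 19.2 and 17.2 CPM. T cell genes summed to 45.0 and 49.9 CPM, most abundantly Gzma, and myeloid genes to 1.74 and 1.05 CPM. Olfm4, Top2a, Trpm5, Chgb, Cd3e, Cd3g and Tyrobp were at 0 by the rule.

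Across all eligible barcodes with at least 2000 UMIs, Sis, Lypd8, Cox4i1 and Reg3b were among the genes whose level followed the summed list D UMIs most closely. Over 1790 and 3382 barcodes thinned to 2000 UMIs, Spearman's rho was 0.491 and 0.509 for Sis, 0.420 and 0.431 for Lypd8, 0.375 and 0.385 for Cox4i1, and 0.374 and 0.461 for Reg3b, among 4155 genes compared. These barcodes share a library and differ in mitochondrial share, and the values are a description. Lypd8 thus followed list D across barcodes although its level was higher in list A barcodes than in members.

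The members differed among themselves by the list that scored second. The 202 and 287 members with list A second had a median of 6904 and 7619 UMIs, and the 185 and 322 with list B second 3854 and 4035.5. Lypd8l was at 460.2 and 554 CPM in the former and 83.8 and 112 in the latter, Bche at 273 and 164 and 161 and 106, and Slc51a at 571 and 666 and 501 and 624. As these genes chose the members and scored the subsets, their levels are a description. Apoa4, outside the rule, was at 2453 and 2184 CPM with list A second, 6455 and 5484.5 with list B second and 12364 and 12579 in the 15 and 47 members with list C second. Lypd8 was at 1960 and 2694, 333 and 553 and 175 and 158 CPM. The villus bottom list summed to 34217 and 38769 CPM with list A second and 21090 and 26007 with list B second. For the villus tip list these sums were 23025 and 23115 and 45477 and 41613 CPM. On both lists each subset was thus nearer to the class of its second list, and the pooled place of the members averages over them. Members with 3 or more list D UMIs were deeper, with a median of 6909 and 7027 UMIs against 3072 and 2920.5 in those with fewer, and list A was second in 58.8% and 53.2% of them against 32.0% and 22.5%. This split counts the UMIs that chose the members, and a deeper barcode can hold more of them, so these values are a description too.

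The comparison of genotypes asks how these enterocytes differ when the epithelium cannot make adiponectin. Adipoq, the deleted gene, had 1 UMI in the whole adip fl/fl library and 0 in adip fl/fl-Villi-Cre, and 0 in the members of both, which allows up to 1.05 CPM in members of adip fl/fl and 0.629 CPM in those of adip fl/fl-Villi-Cre, so it does not check the labels. The receptor genes were read in both: Adipor2 was at 459 and 409 CPM in members and Adipor1 at 112 and 103 CPM. Of 7 compared genes of the pathway 0 were past 1.5-fold between genotypes, near the shares over all genes (2.46% higher and 3.31% lower). Members made up 21.1% of eligible barcodes in adip fl/fl (exact binomial interval 19.3 to 23.0) and 18.5% in adip fl/fl-Villi-Cre (17.2 to 19.8), or 13.6% and 11.2% where list D had to score at least 1.5 times the next list. In adip fl/fl-Villi-Cre the members' share was thus 0.873 times that in adip fl/fl (0.770 to 0.991). List C barcodes took a larger share in adip fl/fl-Villi-Cre, with a ratio of 1.46 (1.31 to 1.65), list B a smaller one at 0.845 (0.769 to 0.930), and list A 0.942 (0.830 to 1.07). Of the barcodes that passed quality control, members were 13.2% and 11.8%. As shares sum to a whole and each genotype is 1 library, a change of the members cannot be told apart from a change of list C barcodes or from variation between libraries.

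Among the list D genes, Bche was the one that differed most between genotypes. It was 0.603 (0.541 to 0.673) times as high in members of adip fl/fl-Villi-Cre, and 0.696, 0.707 and 0.633 in barcodes of lists A, B and C. Slc51a was 1.20 (1.12 to 1.27) times as high, Lypd8l 1.14 (1.05 to 1.23) and Areg 1.00 (0.877 to 1.15). Lypd8l turned direction in 5 alternatives, with values from 0.874 after thinning to 0.9997 without Lypd8l in the rule, and Areg turned in 6, with values from 0.944 to 0.9999. Bche was thus lower in every class, with an interval that reached above 1 in list C barcodes. As these genes chose the members, the ratios are a description. With each gene left out of its own list, the barcodes so chosen held Bche at 182 and 115 CPM and Slc51a at 430 and 533 CPM. Areg stood there at 66.4 and 86.8 CPM, higher in adip fl/fl-Villi-Cre, and Lypd8l at 177.8 and 177.7 CPM. The detection of Bche at 2000 UMIs per barcode was 30.3 and 22.6% of members. Fgf15 was 0.357 (0.257 to 0.493) times as high in members of adip fl/fl-Villi-Cre, and was named after its values were seen. It rested on 106 and 63 UMIs in 27 and 30 members. In lists A, B and C the ratio was 0.700 (0.490 to 1.004), 0.503 (0.184 to 1.33) and 0.127 (0.0125 to 0.708). Lists B and C held few UMIs of it, at 11 and 9 and 6 and 2.

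Across all genes, 177 of 7187 outside the rule were at least 1.5-fold higher in members of adip fl/fl-Villi-Cre (2.46%) and 238 at least 1.5-fold lower (3.31%), the median gene shifting by -0.009 on the log2 scale. The counts were 580 and 611 with barcodes thinned to 2000 UMIs and 394 and 368 where list D had to score at least 1.5 times the next list, and 82 and 102 at a minimum of 20 CPM, where fewer genes were compared. The count of lower genes was 135 with the mitochondrial share from 13 genes and 153 without Slc51a in the rule. None of these counts carries a replicate check. Mt1, a metallothionein that binds zinc and copper, was at 466 and 2625 CPM in members, 5.64-fold, interval 5.33 to 5.97, with UMIs in 208 of 404 and 633 of 657 members. In the other classes it was at 885 and 3196 CPM in list A, 108 and 1836 in list B and 19.9 and 1488.5 in list C barcodes. Mt2, its close relative, went the other way, at 65.2 and 32.9 CPM in members (0.505-fold, interval 0.406 to 0.628) and 169.5 and 103 in list A barcodes. The pair of metallothioneins therefore differed between the libraries in opposite directions, in members and in list A barcodes.

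Noct, a circadian phosphatase gene, was at 27.6 and 83.5 CPM in members (3.03-fold, interval 2.38 to 3.91), and 2.21, 2.34 and 1.88-fold in lists A, B and C. Angptl4, which inhibits lipoprotein lipase, was at 28.2 and 81.0 CPM (2.87-fold, interval 2.25 to 3.69), and 2.21, 1.98 and 3.13-fold in those lists. mt-Nd3, of respiratory complex I, was at 952 and 2265 CPM (2.38-fold, interval 2.28 to 2.48), and 2.51, 2.57 and 2.67-fold there. Tmigd1, Gstp1 and the citrate and succinate transporter gene Slc13a2 stood at 2.08, 2.05 and 1.98 times their adip fl/fl level. Reg1, an antimicrobial-type lectin, was at 27.9 and 72.6 CPM (2.60-fold, interval 2.03 to 3.36), but 1 member held 22.5% and 28.9% of its UMIs, and after thinning to 2000 UMIs before the rule its fold was 0.940. Apart from Reg1, these 8 genes were higher in list A, B and C barcodes as well, though the interval of Gstp1 in list C barcodes reached below 1. Reg1 was lower in list A barcodes (0.797-fold), higher in list B (2.13-fold, interval 1.41 to 3.31) and at 1.06-fold (0.476 to 2.57) in list C.

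Lower in members of adip fl/fl-Villi-Cre were Mir6236 (604 and 284 CPM, 0.471-fold), Exph5 (71.5 and 35.5 CPM, 0.496-fold), Acadl, which encodes a long-chain acyl-CoA dehydrogenase (65.6 and 37.3 CPM, 0.569-fold), and Tifa, an adaptor of innate signalling (70.8 and 40.5 CPM, 0.572-fold). In the other lists Mir6236 was 0.460, 0.408 and 0.462-fold, Acadl 0.641, 0.533 and 0.584-fold and Tifa 0.492, 0.523 and 0.842-fold. The immunoglobulin genes Jchain, Igkc and Igha were 0.334, 0.335 and 0.348 times as high in members of the Cre library. They rest on 2 members of adip fl/fl and 2 of adip fl/fl-Villi-Cre with at least 1% immunoglobulin UMIs, which held 99.7% and 98.6% of these UMIs. The highest immunoglobulin share of a single member's own UMIs was 71.2% and 63.0%. Without such barcodes the folds were 1.67, 1.31 and 1.55, so their direction turned.

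**Figure D5:**
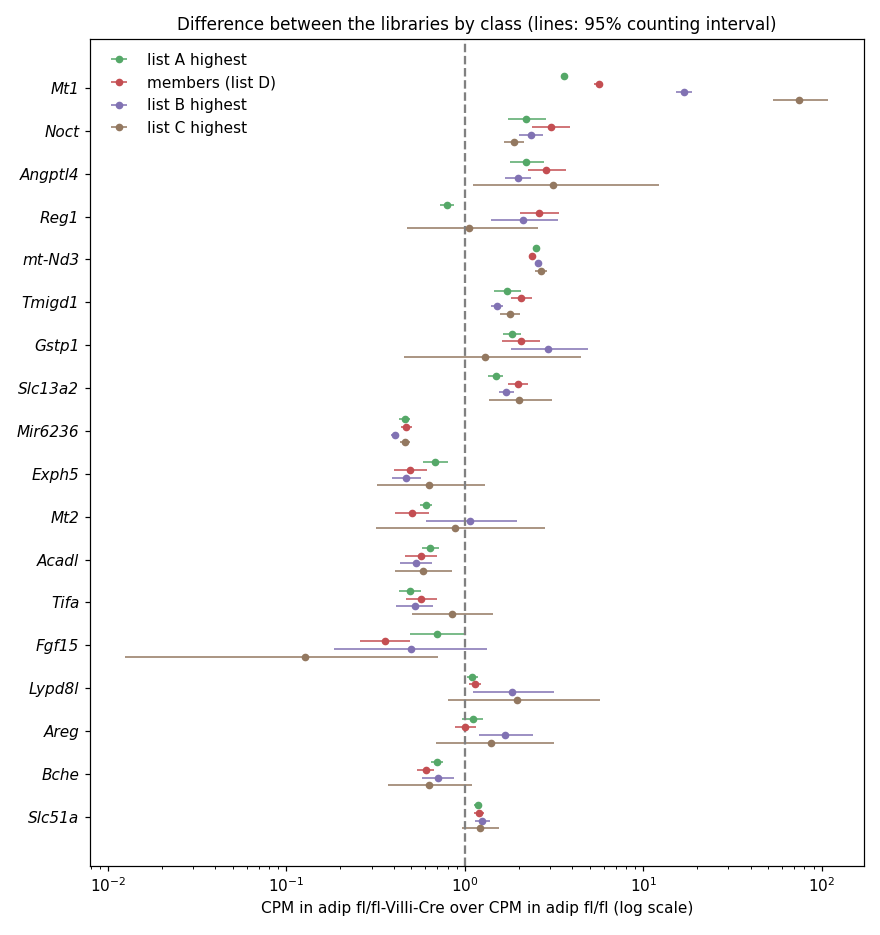
CPM in adip fl/fl-Villi-Cre over CPM in adip fl/fl (horizontal log axis) for the genes named between genotypes, Fgf15 and the list D genes, in list A (green), members (red), list B (purple) and list C barcodes (brown), with lines for 95% counting intervals; the 3 immunoglobulin genes are not drawn. Mt1 is the largest difference in members at 5.64-fold, and Bche stands below 1 in all 4 classes.

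Beside 2.46% of all genes higher and 3.31% lower, of 13 antimicrobial and inflammatory genes 4 were higher in members of adip fl/fl-Villi-Cre and 1 lower, with Nos2 at 14.3 and 46.1 and Duox2 at 17.8 and 34.4 CPM. Of 11 genes of apoptosis and shedding 3 were lower and 0 higher. The lists of sugar genes (11 genes), amino acid uptake (12), brush border hydrolases (13) and lipid packaging (16) had 0 genes past 1.5-fold in either direction, near the shares over all genes. Of 10 compared genes of iron and metal handling 1 was higher, Mt1, and 1 lower, Mt2. Transcripts of other cell types moved between the libraries too. The 7 goblet genes summed to 356 and 829 CPM in members, most abundantly Zg16 at 117 and 306 CPM, with 0 of the 7 at 0, and to 235 and 558, 417 and 987 and 449.8 and 1176 CPM in lists A, B and C, and the 4 outside the rule were all more than 1.5-fold higher in adip fl/fl-Villi-Cre. The 9 Paneth genes summed to 5.93 and 19.5 CPM in members, most abundantly Defa24, with Defa17, Mmp7, Ang4 and Pla2g2a at 0. The 7 B and plasma cell genes summed to 7818 and 2641 CPM, most abundantly Igkc, with Ms4a1 and Mzb1 at 0. The 7 mesenchymal genes summed to 4.19 and 55.6 CPM, with Lum at 0, and all 222 UMIs of Acta2, their most abundant gene, came from 1 member. The part of these transcripts in the differences between genotypes was not tested.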

How the data were processed

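Crypt-enriched small intestinal epithelium was dissociated enzymatically, freed of erythrocytes and dead cells and sequenced by droplet 3′ single-cell RNA sequencing, 1 pooled library per genotype. The authors deposited raw UMI counts per gene and barcode, made with Cell Ranger (7.1.0 in the header of the count tables) after bcl2fastq 5.0.1, per the submitters' processing notes, on mm10; mitochondrial and free RNA are thus still in the values. The 2 libraries held 42150623 and 63370798 UMIs, with a median of 2755 and 2945 per barcode. The limits on genes and mitochondrial share are those stated in the study's methods, but applied to these tables they left fewer barcodes (3069 and 5555 of 9791 and 11838) than the study states, so its filter was not recovered here. Of 55357 gene identifiers 52081 were found in GENCODE M21, which gave positions. The members and gene lists were chosen with earlier results of these data known.

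UMIs were summed per gene, class and library and scaled to CPM with pandas 2.3.3 and numpy 2.4.6 under Python 3.11.15, with 95% exact Poisson, conditional ratio and Clopper-Pearson intervals from scipy 1.17.1. With 1 library per genotype no test was made, and a gene was counted as higher or lower at 1.5-fold, in both libraries where classes were compared. Genes compared had at least 10 CPM in the higher set and 20 UMIs. Named genes had at least 50 CPM: the 15 with the largest rise and 10 with the largest fall in the library with the smaller change, the 8 in each direction between genotypes, the 5 most correlated with list D (1 of them is not reported here), and examples of each list; predicted genes and pseudogenes were passed over (2 of those higher in members, 1 between genotypes). Genes below 50 CPM that are named for being highest in members were chosen after their values were seen. Nearest neighbours (20) came from 20 principal components of 2000 variable genes without the rule genes (scikit-learn 1.9.0). No doublet caller was run; an alternative left out the 5% of barcodes with the most UMIs. The steps were tested on simulated data. Alternatives changed the barcode filters, the rule, the depth, the weighting, the denominator and the neighbour search.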

Additional observations from a re-analysis of the deposited data

Results flagged for a closer look

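In 7 comparisons the difference between genotypes went one way in members and the other way in another class of barcodes, with counting intervals on opposite sides of 1; with 1 library per genotype the difference was not tested. In adip fl/fl-Villi-Cre relative to adip fl/fl, Reg1 was 2.60 times as high in members and 0.797 times (0.729 to 0.872) in list A barcodes. Jchain was 0.334 times as high in members, against 2.11 times (1.93 to 2.31) in list A and 110.3 times (37.6 to 536) in list C barcodes. Igkc was 0.335 times as high in members, against 2.04 times (1.98 to 2.10) in list A and 42.0 times (30.8 to 58.9) in list C barcodes. Igha was 0.348 times as high in members, against 1.5 times (1.42 to 1.59) in list A and 27.1 times (17.5 to 44.5) in list C barcodes. The members' direction turned for each of these genes under another setting: Reg1 was 0.940 after thinning to 2000 UMIs, and without immunoglobulin-rich barcodes Jchain was 1.67, Igkc 1.31 and Igha 1.55. Barcodes with at least 1% immunoglobulin UMIs numbered 2 and 2 among members, 2 and 5 in list A, 1 and 0 in list B and 0 and 1 in list C.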

How the results depend on the processing

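No paired analysis was possible because each genotype is 1 library and the result comes from no test. Shares of members were 27.5% and 24.3% with a mitochondrial limit of 10%, 24.7% and 21.5% with the mitochondrial share from the 13 protein-coding genes, 13.6% and 11.2% where list D had to score at least 1.5 times the next list, and 14.6% and 12.8% with at least 3 list D UMIs. They were 22.8% and 20.1% after thinning to 2000 UMIs, 22.8% and 20.8% without Lypd8l, and 20.3% and 15.6% without Slc51a. The count of genes higher in members was 24 at the 10% limit, 44 with the 13 genes, 120 with the 1.5 times margin, 144 with 3 UMIs, 428 after thinning, 111 without the 5% of barcodes with the most UMIs, 351 with equal weight of barcodes, 130 without mt- genes in the denominator and 46 at a minimum of 20 CPM, where fewer genes were compared. Genes lower in members numbered 174 at the 10% limit and 276 without Slc51a. Between genotypes 273 genes were higher at the 10% limit, 394 with the margin (368 lower), 580 after thinning (611 lower), 288 with equal weight (402 lower) and 82 at 20 CPM (102 lower), and 135 were lower with the 13 genes and 153 without Slc51a. The cause was not tested.

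The direction turned for few named genes. Areg between genotypes was 0.945 at the 10% limit, 0.981 with 3 UMIs, 0.944 without Lypd8l, 0.993 without Bche, 0.996 without mt- genes and 1.00 (0.9999) without immunoglobulin barcodes, so its genotype ratio has no stable direction. Without Areg in the rule its level was 66.4 CPM in adip fl/fl and 86.8 CPM in adip fl/fl-Villi-Cre. Lypd8l between genotypes was 0.983 with the margin, 0.874 after thinning, 1.00 (0.9997) without Lypd8l in the rule, 0.990 without the deepest barcodes and 0.983 with equal weight. Reg1 was 0.940 after thinning. Lama3 was 1.27 times as high in members at the 10% limit. With 3 UMIs, after thinning and without immunoglobulin barcodes (chosen after seeing the data), Igha in members over other barcodes was 0.629, 0.354 and 0.808, and between genotypes Jchain was 80.6, 10.2 and 1.67, Igkc 52.1, 22.8 and 1.31, and Igha 57.1, 24.5 and 1.55. Of the single genes compared with other barcodes, 348 values over all alternatives stayed within the counting interval of the reported value, 141 left it in the same direction and 4 turned direction, and between genotypes 251, 68 and 21. The median place between lists A and B ran from 0.375 to 0.679 over its alternatives, and the share of members among the neighbours of members was 41.9% to 42.7% in adip fl/fl and 37.8% to 39.3% in adip fl/fl-Villi-Cre over its alternatives. A member held a median of 5 list D UMIs, and the part of depth in which barcodes the rule chose was not tested.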
